A study of Mus musculus with 6 samples.

Results

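The circadian clock genes of the mouse pancreas were examined in saline mice, in mice with caerulein-induced acute pancreatitis (AP) and in AP mice pretreated with polyI:C. The group holds 10 genes, namely Arntl, Npas2, Per1, Per2, Per3, Cry1, Nr1d1, Nr1d2, Dbp and Ciart, and all 10 were found among the 22556 genes listed in each mouse. They were picked by name with their levels in these 6 mice already known. Their levels and fold changes are therefore given as a description, without p-values. Clock pathway genes outside this group were tested in the fit over all genes.

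Pancreas RNA came from 6 male wild-type C57BL/6 mice, 2 per group, at postnatal week 8 according to the labels. Saline mice received no caerulein. AP mice received 10 hourly intraperitoneal injections of 200 μg/kg caerulein (spelled cerulein in the labels), which overstimulates acinar cells through their receptor for cholecystokinin. The third group (polyI:C + AP) was first pretreated with polyI:C, synthetic RNA in double-stranded form, at 10 mg/kg and then injected likewise. In the paper's main caerulein model polyI:C was given 8 h before caerulein, with saline as its control. A shorter interval was also used in the paper, and the one for these mice is not stated. The animals had fasted for 8 h, and the pancreas was removed 24 h after the first caerulein injection. A sampling time for the saline mice is not stated separately. A group with polyI:C and no caerulein was not analysed here. The mice lived in a cycle of 12 h of day and 12 h of night, and the clock time at which each mouse was injected or killed is not given in the sources used here. Time of day therefore entered no comparison, and its part in any difference below was not tested.

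Expression was given in TPM, a unit that corrects read numbers for gene length and gives every mouse an equal total. The reads on the listed genes, estimated from the spacing of low TPM values, numbered 3296933 and 3972069 in the saline mice. In the other 4 mice they numbered between 6932024 and 10852512. Reads on genes that were not listed are not part of this estimate. On the TPM scale the 16814 tested genes had a median log2 fold change of 0.45 for AP and of 0.48 for polyI:C + AP mice relative to saline mice. After median-of-ratios scaling, which sets the typical gene equal between mice, these medians were 0.06 and 0.06. Against AP mice, the polyI:C + AP mice had a median of 0.04 before and 0.02 after this scaling. Fold changes are given in TPM first, and for some genes also with median-of-ratios scaling. Where only the TPM value is given, the direction of a small rise and the size of a fall against saline mice can depend on the scaling.

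The circadian clock is a transcriptional feedback loop that runs in nearly every cell, including acinar cells and islets of the pancreas. ARNTL (also called BMAL1) pairs with CLOCK or NPAS2 and activates the Per and Cry genes through E-boxes, and the PER and CRY proteins then block this activator. In a further loop, NR1D1 and NR1D2 (REV-ERBα and REV-ERBβ) repress Arntl through elements that the ROR receptors use to activate it. In mouse tissues, Arntl and Npas2 transcripts peak around the end of the night, Nr1d1 and Dbp transcripts during the day, Per transcripts around dusk and Cry1 transcripts in the night. DBP drives output genes through D-boxes, and CIART (CHRONO) is a repressor of the ARNTL-containing activator.

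Some of the promoters hold motifs of this wiring. RefSeq promoter windows on GRCm38.p6, from 250 bases before to 50 bases after a transcription start, were found for 9 of the 10 genes (not Per2), with 11 windows in all. They were searched on both strands for the E-box CACGTG, the related variant of it known as the E′-box, CACGTT, the D-box forms TTATGTAA and TTACGTAA, and the REV-ERB and ROR element. For the element the forms were TAGGTCA, the form ending differently in TAGGTTA, and the form starting differently in TGGGTCA. No motifs overlap in the stretches shown. Arntl is shown because its level differed most between the groups, and the others because they hold one of these motifs. The windows of Npas2, Nr1d2 and Dbp held none of them. With the start counted as base 1, Arntl holds element forms that begin at positions -6 and 31 of the downstream of its 2 starts (chr7:113207495-113207521 and chr7:113207531-113207557, plus strand). Ciart holds 3 E-boxes (chr3:95882257-95882354, minus strand) and Per3 holds 2 D-boxes (chr4:151044806-151044880, minus strand). Cry1 holds the E-box variant and an E-box (chr10:85185099-85185143, minus strand), and Nr1d1 the variant (chr11:98775390-98775415, minus strand). Per1 holds an E-box (chr11:69098773-69098798, plus strand) before a RefSeq start that lies inside the gene span given below. The stretches below run 5′ to 3′ on the strand of the gene, with these motifs in capitals (AACGTG is the variant read from the opposite strand).
Arntl element 1: ggtcggaaagTAGGTTAgtggtgcgac
Arntl element 2: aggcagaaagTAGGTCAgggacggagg
Ciart: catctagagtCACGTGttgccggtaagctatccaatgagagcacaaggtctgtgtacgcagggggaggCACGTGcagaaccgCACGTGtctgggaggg
Per3: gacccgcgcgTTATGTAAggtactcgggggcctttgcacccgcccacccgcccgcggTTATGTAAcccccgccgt
Cry1: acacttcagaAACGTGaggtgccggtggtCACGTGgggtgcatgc
Per1: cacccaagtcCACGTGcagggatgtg
Nr1d1: cacagatctcAACGTGccggctgctg
Among all 32851 promoter windows of this length, 7.15% held the E-box, 4.68% the variant, 1.06% a D-box form and 7.81% a REV-ERB and ROR element form. Such a match describes the sequence and does not show that a factor was bound in these mice.

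In saline mice the 10 genes covered a wide range of levels. Nr1d2 was highest with a mean of 53.5 TPM, followed by Cry1 with 35.6 TPM, Arntl with 30.2 TPM, Per1 with 25.0 TPM and Per2 with 13.2 TPM. Nr1d1, Ciart, Per3, Dbp and Npas2 followed with means between 3.59 and 5.14 TPM, and the order among these 5 genes was within the spread between the mice, as was that of Arntl and Per1. The 4 least covered genes rest on few reads. Estimates per mouse ran from 10 to 70 reads for Nr1d1, 14 to 32 for Dbp, 12 to 37 for Ciart and 16 to 89 for Npas2, against 350 to 1180 for Nr1d2.

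**Figure D1:**
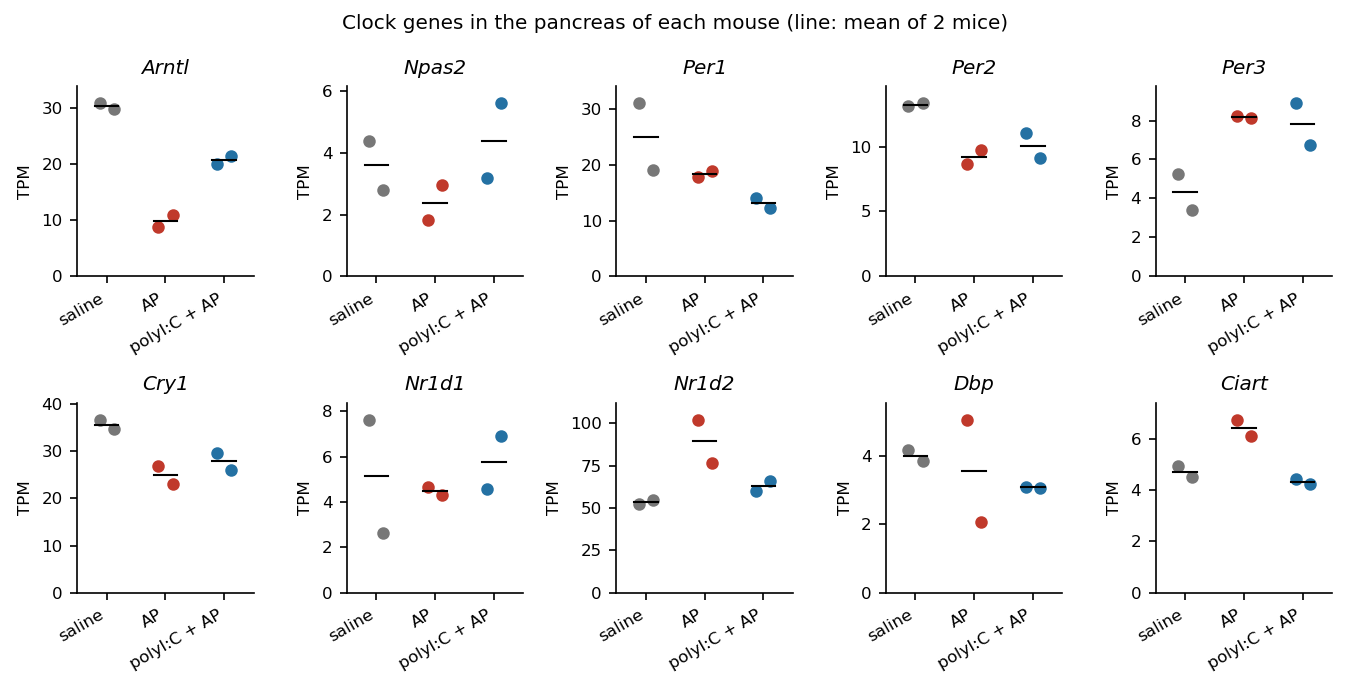
TPM (vertical axes, each from 0) of the 10 clock genes in each of the 6 mice, grouped on the horizontal axis as saline, AP and polyI:C + AP mice (polyI:C + AP). Points are single mice and black lines are means of 2 mice. Arntl stands near 30 TPM in saline mice, near 10 TPM in AP mice and near 20 TPM in polyI:C + AP mice.

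Among the activators, Arntl had the widest separation between groups. Arntl (ENSMUSG00000055116, chromosome 7 of GRCm38 from 113207465 to 113314126, plus strand) had 30.8 and 29.7 TPM in saline, 8.82 and 10.8 TPM in AP, and 19.9 and 21.4 TPM in polyI:C + AP mice. The 3 groups did not overlap, and the polyI:C + AP mice lay between the other groups. Against saline mice, the log2 fold change of Arntl was -1.58 (standard error 0.13) in AP mice and -0.54 (standard error 0.13) in polyI:C + AP mice. Between polyI:C + AP and AP mice it was 1.04 (standard error 0.13). With median-of-ratios scaling the values were -2.00, -0.99 and 1.01. Over the 17 alternatives the difference between AP and saline mice ran from -2.00 to -1.44. That between the polyI:C + AP and AP mice ran from 0.90 to 1.18. Many of these alternatives, such as the filters and variance priors, cannot move a fold change.

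Npas2 (chromosome 1, 39193731 to 39363236, plus strand), the alternative partner of ARNTL, had 4.40 and 2.79 TPM in saline, 1.82 and 2.95 TPM in AP, and 3.19 and 5.61 TPM in polyI:C + AP mice. Saline and AP mice overlapped. Both polyI:C + AP mice were above both AP mice, with a log2 fold change of 0.75 (standard error 0.39). Against saline mice the value was 0.24, and -0.16 with median-of-ratios scaling.

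The partner Clock, which is not among the 10 genes and was tested, had 36.0 and 43.5 TPM in saline, 47.0 and 41.2 TPM in AP, and 50.3 and 50.2 TPM in polyI:C + AP mice. Clock differed by 0.15 on the log2 scale between AP and saline mice (limma, adjusted p = 0.37) and by 0.19 between polyI:C + AP and AP mice (limma, adjusted p = 0.57). Neither passed. Both polyI:C + AP mice were above both saline mice, by 0.34 on the log2 scale (limma, adjusted p = 0.066), a difference that was -0.11 with median-of-ratios scaling.

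Both AP mice had less of the repressors Per1, Per2 and Cry1 than either saline mouse, and more of Per3. Per1 (chromosome 11, 69095217 to 69109960, plus strand), the period gene that also responds quickly to hormones and cyclic AMP, had 31.0 and 19.1 TPM in saline, 17.8 and 18.9 TPM in AP, and 14.1 and 12.2 TPM in polyI:C + AP mice. The saline mice differed more from each other than the second saline mouse did from the AP mice. AP and saline mice differed by -0.40 on the log2 scale (standard error 0.23), and -0.06 without saline replicate 1. In polyI:C + AP mice Per1 was lower than in both other groups, by -0.46 against AP mice and -0.86 against saline mice (standard error 0.23 for both). The latter was -1.31 with median-of-ratios scaling and -0.52 without saline replicate 1.

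Per2 (chromosome 1, 91415982 to 91459324, minus strand), a period gene needed for stable rhythms, had 13.1 and 13.3 TPM in saline, 8.64 and 9.76 TPM in AP, and 11.0 and 9.10 TPM in polyI:C + AP mice. Against saline mice, Per2 differed by -0.50 in AP and by -0.38 in polyI:C + AP mice (standard error 0.17 for both). These values were -0.92 and -0.82 with median-of-ratios scaling. The groups with caerulein overlapped. Per3 (chromosome 4, 151003652 to 151044665, minus strand), a period gene that is dispensable for the core loop, had 5.26 and 3.39 TPM in saline, 8.25 and 8.12 TPM in AP, and 8.89 and 6.73 TPM in polyI:C + AP mice. All 4 mice with caerulein were above both saline mice, by 0.88 and 0.80 on the log2 scale (standard error 0.23 for both). With median-of-ratios scaling these values were 0.48 and 0.38, and without saline replicate 1, the higher of the saline mice, they were 1.16 and 1.08.

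Cry1 (chromosome 10, 85131700 to 85185064, minus strand), a strong repressor of the ARNTL-containing activator, had 36.6 and 34.6 TPM in saline, 26.8 and 23.0 TPM in AP, and 29.7 and 26.0 TPM in polyI:C + AP mice. It was lower in all 4 mice with caerulein, with log2 fold changes of -0.51 and -0.35 against saline mice (standard error 0.15 for both). Cry1 had -0.93 and -0.80 with median-of-ratios scaling. Its relative Cry2, which was tested, changed by 0.45 (limma, adjusted p = 0.11) and 0.33 (limma, adjusted p = 0.22) in the same comparisons.

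Of the REV-ERB genes, Nr1d2 differed between groups and Nr1d1 varied too much between mice to be placed. Nr1d2 (chromosome 14, 18204054 to 18239127, minus strand) had 52.5 and 54.6 TPM in saline, 102 and 76.7 TPM in AP, and 60.1 and 66.0 TPM in polyI:C + AP mice. The groups did not overlap and their order was the reverse of that of Arntl. AP and saline mice differed by 0.72 on the log2 scale (0.29 with median-of-ratios scaling), and the difference was -0.49 in polyI:C + AP against AP mice (standard error 0.15 for both). For polyI:C + AP relative to saline mice it was 0.23 in TPM and -0.22 with median-of-ratios scaling, so that direction depended on the scaling.

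Nr1d1 (chromosome 11, 98767932 to 98775333, minus strand) had 7.63 and 2.65 TPM in saline, 4.68 and 4.33 TPM in AP, and 4.58 and 6.93 TPM in polyI:C + AP mice. The saline mice spanned both other groups, and the second saline value rests on about 10 reads. For polyI:C + AP relative to saline mice, the log2 fold change of Nr1d1 was 0.28 in TPM and -0.13 with median-of-ratios scaling. Nr1d1 shares 263 exonic bases, 8.55% of its exon length, with Thra on the opposite strand, the thyroid hormone receptor gene, which was at 12.9 to 34.1 TPM. The library kits keep the strand of a transcript, and whether the counting used it is not given, so reads in this stretch are of uncertain origin.

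Dbp and Ciart had low levels. Dbp (chromosome 7, 45705088 to 45710203, plus strand), the D-box activator, had 4.17 and 3.84 TPM in saline, 5.06 and 2.06 TPM in AP, and 3.09 and 3.07 TPM in polyI:C + AP mice. The AP mice spanned both other groups, and polyI:C + AP mice were below saline mice by -0.33 (standard error 0.44). Dbp shares 539 exonic bases, 18.0% of its exon length, with Sphk2 on the opposite strand. Ciart (chromosome 3, 95878503 to 95882251, minus strand) had 4.93 and 4.50 TPM in saline, 6.73 and 6.10 TPM in AP, and 4.43 and 4.22 TPM in polyI:C + AP mice. Both AP mice were above the other 4 mice. AP and saline mice differed by 0.41 on the log2 scale (0.01 with median-of-ratios scaling), and the difference was -0.52 in polyI:C + AP against AP mice (standard error 0.31 for both).

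**Figure D2:**
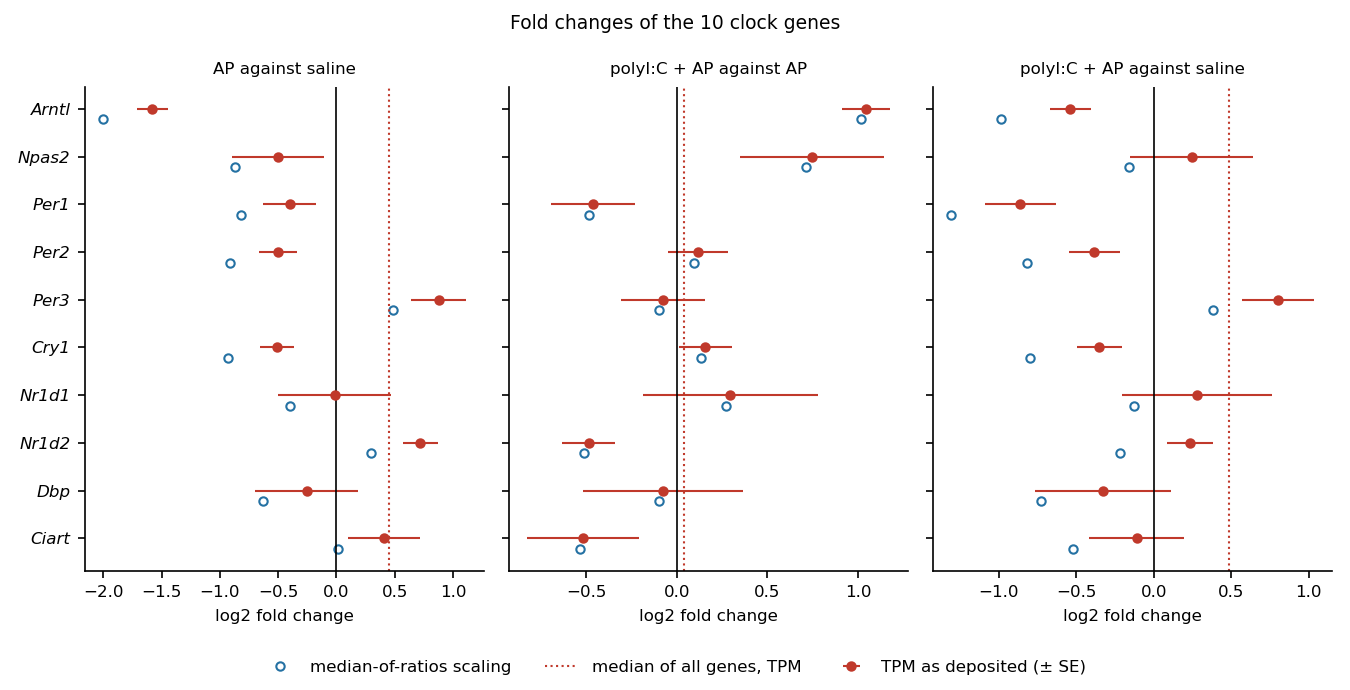
Log2 fold changes (horizontal axes) of the 10 clock genes (vertical axis) in the 3 comparisons, from 2 mice per group. Filled points with bars are values in TPM ± standard error, open circles are values with median-of-ratios scaling, and the dotted line is the median of all 16814 tested genes in TPM. Arntl lies farthest to the left in AP against saline mice (-1.58) and farthest to the right in polyI:C + AP against AP mice (1.04), and scaling moves all genes to the left in both comparisons with saline mice.

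Counted together, 3 of the 10 genes (Per3, Nr1d2 and Ciart) were above both saline mice in both AP mice, where 52.6% of all tested genes were, and 4 (Arntl, Per1, Per2 and Cry1) were below, where 16.4% were. Relative to both AP mice, 2 genes (Arntl and Npas2) were above and 3 (Per1, Nr1d2 and Ciart) below in both polyI:C + AP mice, where 27.7% and 22.1% of all genes were. Relative to both saline mice, 2 genes (Per3 and Nr1d2) were above and 6 (Arntl, Per1, Per2, Cry1, Dbp and Ciart) below, where 54.4% and 14% were. Genes were called where the adjusted p did not exceed 0.05 and the difference was 2-fold or more. By this rule 1 of the 10 genes, Arntl, was lower in AP mice, where 22.2% of all genes were called and 4.03% were called lower. Arntl was also the 1 gene called, as higher, between polyI:C + AP and AP mice, where 0.845% of all genes were called, 0.44% higher and 0.404% lower. With median-of-ratios scaling Arntl was called in the same directions, where 7.26% of all genes were lower in AP mice and 0.404% higher and 0.422% lower with polyI:C. These counts use the values by which the genes had been picked, and both comparisons use the same AP mice. Between polyI:C + AP and saline mice none of the 10 was called, where 19.9% of all genes were and 2.97% were called lower. With median-of-ratios scaling and with voom on estimated reads, 1 gene (Per1) was called lower in that comparison. Of the 16814 tested genes, 982 and 812 were called lower there. Without saline replicate 2 the log2 fold change of Per1 was -1.21. Without saline replicate 1, Per3 had log2 fold changes of 1.16 in AP and 1.08 in polyI:C + AP mice. With no fold limit, Arntl, Cry1, Nr1d2 and Per3 were called between AP and saline mice, where 6794 of the 16814 genes were. By that rule Arntl, Per1 and Per3 were called between polyI:C + AP and saline mice, where 6592 genes were. The call of Arntl in polyI:C + AP against AP mice was made in 9 of 18 settings and was lost when any 1 of the 6 mice was left out. Over the 10 genes, the log2 fold changes between AP and saline mice had a median of -0.33, or -0.73 with median-of-ratios scaling, against medians of 0.45 and 0.06 over all genes.

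Ratios of transcripts within a mouse do not depend on the scaling between mice, and all ratios given here were formed after the values had been seen. The log2 ratio of Arntl to its partner Clock was -0.23 and -0.55 in saline mice, -2.41 and -1.93 in AP mice, and -1.33 and -1.23 in polyI:C + AP mice. That of Arntl to Nr1d2, the repressor of Arntl, was -0.77 and -0.88 in saline mice, -3.53 and -2.83 in AP mice, and -1.59 and -1.63 in polyI:C + AP mice. In both ratios the groups did not overlap, and the polyI:C + AP mice lay between saline and AP mice. The log2 ratio of Per3 to Per1 was -2.56 and -2.49 in the saline mice, although each gene on its own differed between these mice. It was -1.11 and -1.22 in AP mice, and -0.67 and -0.86 in polyI:C + AP mice, which were farthest from saline mice.

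**Figure D3:**
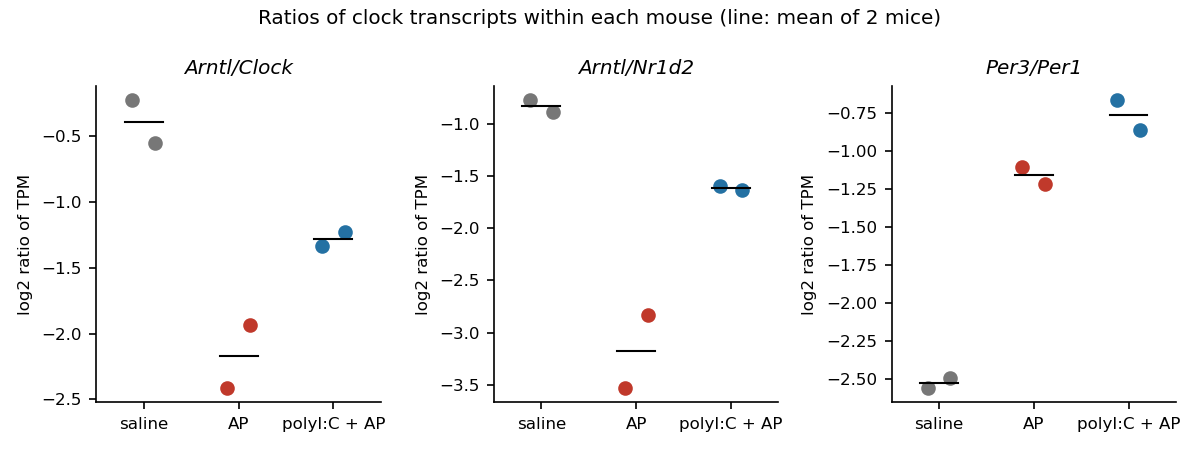
Log2 ratios of TPM within each mouse (vertical axes) for Arntl to Clock, Arntl to Nr1d2 and Per3 to Per1, by group (horizontal axes), with polyI:C + AP mice labelled polyI:C + AP. Points are single mice and black lines are means of 2 mice. In the ratios with Arntl the polyI:C + AP mice lie between the other groups, and in the ratio of Per3 to Per1 they lie above both.

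The wider clock pathway was examined with 22 further genes, of which 20 reached the mean of 1 TPM needed for the test. Rorb, at most 0.142 TPM in any mouse, and Hlf, at 0.231 to 0.763 TPM, did not. In AP against saline mice 5 of the 20 genes rose and 1 fell by the same rule, or 30% of them, beside 22.2% of all genes. With median-of-ratios scaling 3 rose and 3 fell, beside 9.31% and 7.26% of all genes. Log2 fold changes of the 20 genes had a median of 0.65 in AP mice and 0.38 in polyI:C + AP mice relative to saline mice, and 0.45 and 0.48 over all genes. Between polyI:C + AP and AP mice the median was -0.10, and 0.04 over all genes. In polyI:C + AP against AP mice, none of the 20 passed in limma or in voom, while 5 had an unadjusted p under 0.05 in limma. Relative to saline mice, 6 rose and 1 fell in polyI:C + AP mice, beside 16.9% and 2.97% of all genes, and with median-of-ratios scaling 3 rose and 2 fell, beside 7.88% and 5.84% of all genes.

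Bhlhe40 (DEC1), a repressor that binds E-boxes and competes with the ARNTL-containing activator, had the largest rise. It had 5.24 and 3.29 TPM in saline, 30.9 and 30.3 TPM in AP, and 24.6 and 22.8 TPM in polyI:C + AP mice. The log2 fold changes against saline mice were 2.74 (standard error 0.21, limma, adjusted p = 0.00020) and 2.37 (standard error 0.21, limma, adjusted p = 0.00035), and both were called in all 18 settings. Between polyI:C + AP and AP mice the log2 fold change was -0.36 (limma, adjusted p = 0.51). Its relative Bhlhe41 was at 0.564 and 0.578 TPM in saline mice and 1.29 and 2.03 TPM in AP mice, and the difference of 0.99 on the log2 scale did not pass (limma, adjusted p = 0.10).

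Of the genes for enzymes that act on clock proteins, Csnk1d and Fbxw11 rose and Usp2 fell. Csnk1d, a casein kinase that phosphorylates PER proteins, had 29.8 and 33.1 TPM in saline, 74.5 and 71.9 TPM in AP, and 75.6 and 66.9 TPM in polyI:C + AP mice, with log2 fold changes of 1.21 and 1.17 (limma, adjusted p = 0.00039 and 0.00049). With median-of-ratios scaling these were 0.78 and 0.72, short of 2-fold. Fbxw11, a ubiquitin ligase subunit that acts on phosphorylated PER proteins, had 33.0 and 33.3 TPM in saline, 115 and 106 TPM in AP, and 73.7 and 70.9 TPM in polyI:C + AP mice. It rose by 1.72 in AP mice (limma, adjusted p = 8.2e-05) and by 1.11 in polyI:C + AP mice (limma, adjusted p = 0.00034), the latter being 0.66 with median-of-ratios scaling. Its close relative Btrc changed by 0.61 and Csnk1e by 0.95 in AP against saline mice, both with an adjusted p below 0.05 in limma (0.012 and 0.0019) and short of 2-fold. Usp2, a deubiquitinase gene that cycles in many tissues, had 16.5 and 11.0 TPM in saline, 5.65 and 3.57 TPM in AP, and 5.83 and 4.91 TPM in polyI:C + AP mice. It fell by 1.48 on the log2 scale in AP mice (limma, adjusted p = 0.0073) and by 1.26 in polyI:C + AP mice (limma, adjusted p = 0.015). These calls were lost without saline replicate 1, the former also without AP replicate 2 and the latter also without either polyI:C + AP mouse.

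**Figure D4:**
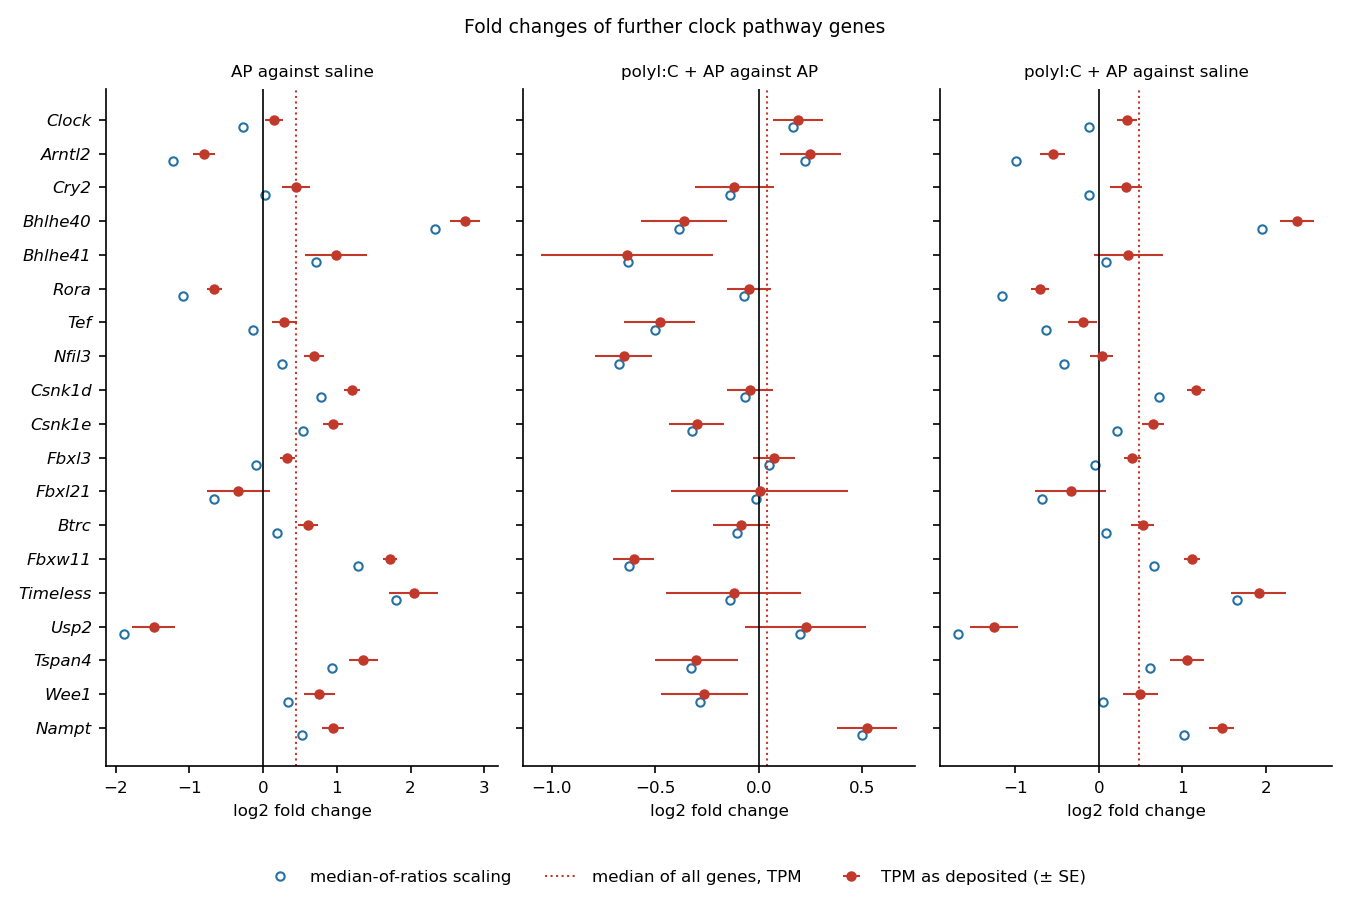
Log2 fold changes (horizontal axes) of further clock pathway genes named on the vertical axis in the 3 comparisons, from 2 mice per group. Filled points with bars are values in TPM ± standard error, open circles are values with median-of-ratios scaling, and the dotted line is the median of all tested genes in TPM. Bhlhe40 lies farthest to the right and Usp2 farthest to the left in both comparisons with saline mice.

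The remaining calls were for Tspan4, Timeless and Nampt. Tspan4, a tetraspanin gene that cycles in many tissues, rose by 1.36 in AP mice (limma, adjusted p = 0.0023) and by 1.06 in polyI:C + AP mice (limma, adjusted p = 0.0066), and neither was called with median-of-ratios scaling (0.93 and 0.61). Timeless, related to a fly clock gene and active at replication forks, had 0.367 and 0.282 TPM in saline, 2.60 and 3.20 TPM in AP, and 3.07 and 2.22 TPM in polyI:C + AP mice. It rose by 2.04 (limma, adjusted p = 0.0032) and 1.92 (limma, adjusted p = 0.0044), and the former call was lost without AP replicate 2. Its saline values rest on an estimated 3 and 2 reads. Nampt, a clock-controlled gene for NAD synthesis, had 34.6 and 46.3 TPM in saline, 75.4 and 80.2 TPM in AP, and 109 and 115 TPM in polyI:C + AP mice. It rose by 1.47 in polyI:C + AP mice (limma, adjusted p = 0.00056), and its change of 0.95 in AP mice fell short of 2-fold (limma, adjusted p = 0.0027).

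Rora, whose product activates Arntl, and Arntl2 did not pass the fold limit in TPM. Rora had 52.0 and 51.8 TPM in saline, 34.5 and 30.9 TPM in AP, and 33.7 and 29.5 TPM in polyI:C + AP mice. Its log2 fold changes were -0.66 and -0.71 (limma, adjusted p = 0.0033 and 0.0027), and with median-of-ratios scaling they were -1.09 and -1.16 and were called. Arntl2, a paralogue of Arntl, had 22.1 and 18.5 TPM in saline, 11.9 and 10.9 TPM in AP, and 14.0 and 13.2 TPM in polyI:C + AP mice. AP mice differed from saline mice by -0.80 (limma, adjusted p = 0.0058), and -1.22 and called with median-of-ratios scaling. Among the D-box factors related to Dbp, the activator Tef changed by 0.29 in AP mice (limma, adjusted p = 0.24) and the repressor Nfil3 by 0.69 (limma, adjusted p = 0.0074), short of 2-fold. Against AP mice, Nfil3 differed by -0.65 with polyI:C (limma, adjusted p = 0.086).

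Glucocorticoids set peripheral clocks and act directly on Per1, so 7 genes known to respond to them were tested. In AP against saline mice Sgk1, Zbtb16 and Klf9 fell and Dusp1 rose, 57.1% of the 7 beside 22.2% of all genes. By direction, 4.03% of all genes were called lower and 18.2% higher. With median-of-ratios scaling 5 fell (Tsc22d3 and Fkbp5 as well) and none rose, beside 7.26% and 9.31% of all genes. Errfi1, the remaining gene, was called with neither scale. It had 70.9 and 49.4 TPM in saline and 81.9 and 125 TPM in AP mice. Sgk1, a kinase gene, had 81.3 and 64.5 TPM in saline, 28.1 and 32.5 TPM in AP, and 63.6 and 57.5 TPM in polyI:C + AP mice. It fell by 1.25 in AP mice (limma, adjusted p = 0.00093), and its difference of 0.99 between polyI:C + AP and AP mice was short of 2-fold (limma, adjusted p = 0.038). Klf9, a transcription factor gene that is also clock-controlled, fell by 1.16 in AP mice (limma, adjusted p = 0.0019) and by 1.12 in polyI:C + AP against saline mice (limma, adjusted p = 0.0024), the only call of the list in that comparison. The call of Klf9 with polyI:C was lost without polyI:C + AP replicate 2. Zbtb16 fell by 1.62 (limma, adjusted p = 0.032), with 52.0 and 16.5 TPM in the polyI:C + AP mice, and Dusp1 rose by 1.33 (limma, adjusted p = 0.032). The call of Zbtb16 was made in 11 of 18 settings and was lost without any 1 of the saline and AP mice, and that of Dusp1 was made in 8 of 18 and was lost without any 1 mouse other than saline replicate 1. In polyI:C + AP against AP mice none of the 7 passed in limma or voom, and 1 had an unadjusted p under 0.05 in limma.

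Levels of cell type markers differed between the groups, and in whole pancreas fewer cells of a type and less RNA per cell cannot be told apart. Of 10 acinar markers 5 were listed, all of them transcription factor genes. The digestive enzyme genes Cpa1, Cela1, Ctrb1, Pnlip and Cel were not listed, so they are in no sum here. The summed level of the 5 listed markers was 705 to 829 TPM in saline, 305 to 354 TPM in AP and 645 to 663 TPM in polyI:C + AP mice. Of these, Rbpjl and Bhlha15, transcription factor genes of acinar cells, fell in AP mice, where Rbpjl fell by 1.23 and Bhlha15 fell by 2.83 on the log2 scale (limma, adjusted p = 0.0012 and 3.9e-05), and rose by 1.08 and 1.73 in polyI:C + AP against AP mice (limma, adjusted p = 0.034 and 0.0040). The other 3 acinar markers were not called in TPM in any comparison. Gata4 had 63.5 and 47.0 TPM in saline, 34.3 and 30.2 TPM in AP, and 54.4 and 58.4 TPM in polyI:C + AP mice. Ptf1a and Nr5a2, further transcription factor genes of acinar cells, were not below the saline range in AP mice, at 43.4 to 55.2 TPM and 105 to 107 TPM, against 40.8 to 44.5 TPM and 92.4 to 97.0 TPM in saline mice. Log2 ratios of Arntl to each of the 5 markers were formed after the values had been seen, and they went different ways. To Nr5a2 the ratio was -1.59 and -1.71 in saline, -3.60 and -3.28 in AP, and -3.05 and -2.76 in polyI:C + AP mice. To Ptf1a it was -0.53 and -0.46, -2.65 and -2.01, and -1.76 and -2.20, and to Gata4 it was -1.05 and -0.66, -1.96 and -1.48, and -1.45 and -1.45. With these 3 markers both AP mice were below both saline mice. To Rbpjl it was -2.95 and -2.71, -3.56 and -2.88, and -3.30 and -3.16, so the AP mice overlapped both other groups. To Bhlha15 it was -3.67 and -3.46, -2.60 and -2.10, and -3.02 and -3.00, so both AP mice were above both saline mice. The summed level of 5 macrophage markers was 57.0 to 90.9, 243 to 265 and 62.6 to 66.3 TPM in the same order of groups, with 4 of 5 called higher in AP mice and 3 of 5 lower with polyI:C against AP mice. For 4 of 6 neutrophil markers measured, the sums were 2.38 to 14.3, 29.9 to 32.8 and 17.3 to 33.8 TPM, with S100a8 and Cxcr2 at 0 in saline replicate 2. The sums of 5 ductal markers were 83.1 to 88.1, 1053 to 1084 and 810 to 829 TPM, mostly from Krt19. Sums of 4 fibroblast markers (591 to 773, 664 to 824 and 596 to 713 TPM), 3 endothelial markers (35.2 to 58.4, 43.4 to 46.8 and 42.8 to 56.4 TPM) and 4 T cell markers (4.07 to 4.35, 1.01 to 3.70 and 1.23 to 2.56 TPM) are given in the same order of groups. No endothelial marker was called, and neither was the 1 T cell marker abundant enough to be tested, while the T cell sum of each mouse with caerulein was below both saline mice. Of the fibroblast markers, 2 were called higher in each group with caerulein, and Col3a1 had 72.4 and 31.9 TPM in saline, 302 and 348 TPM in AP, and 180 and 191 TPM in polyI:C + AP mice, whereas Dcn had 540 to 671 TPM in saline mice and 308 to 503 TPM in the other mice. Cd3e was at 0 in AP replicate 1 and polyI:C + AP replicate 1. Sums of 6 islet markers were 1711 to 1829, 1660 to 1858 and 1003 to 1348 TPM, and 3 B cell markers reached 23.0 TPM in AP replicate 2 against at most 5.81 TPM in the other mice. The part of these cell types in the levels of the clock genes was not tested.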

How the data were processed

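RNA-seq of pancreas from 6 mice was used, with 2 mice in each of 3 groups taken from the labels. Per the paper and the labels, the authors used Trimmomatic for trimming, STAR for alignment to mm10 and htseq-count for counting. The authors deposited TPM, and the step from counts to TPM is not described. Versions, annotation and strand setting are not given in the sources used here. Of 22556 gene identifiers 22490 were found in GENCODE M21 (GRCm38), which gave symbols, coordinates and exon lengths.

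The clock genes, the lists and the tests were chosen with earlier results of these data known. A linear model was fitted with limma 3.58.1 in R 4.3.3 to log2(TPM + 0.5) of all 6 mice, with 1 coefficient per group, for the 16814 genes whose mean reached 1 TPM. The prior variance followed log2(mean TPM × exon length + 1). Benjamini-Hochberg adjustment covered all tested genes of a comparison. The deposited TPM values were log2-transformed without further scaling, and the pseudocount of 0.5 understates fold changes of low genes. An exact permutation test of 2 against 2 mice cannot go below a two-sided p of 0.333. A single adjusted p therefore rests on the variance limma shares between genes, together with the spread between these mice. The method was tested on simulated data in which changed genes rose or fell at random. That test did not cover a shift of the typical gene between groups. Reads on the listed genes of each library were estimated from TPM × exon length. Of the low values of this product, 51.2% to 62.4% lay within 0.1 of a whole multiple of a step. With lengths shuffled, 19.5% to 20.4% did. Intervals were not computed, since depth is an estimate.

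Named genes were the 10 clock genes, Clock, Cry2, Rora, Tef, Hlf, Nfil3, Bhlhe40, Bhlhe41, every listed gene called in a comparison, markers of reported lists, and the 3 genes most like Nr1d1 and Arntl. A further gene of this rule counts in the list totals and is not reported here. Rorb, Csnk1e, Btrc, Arntl2, Tsc22d3, Fkbp5, Errfi1, Thra and Sphk2 were named after their values were seen. Promoter sequences came from RefSeq (GRCm38.p6). Deviations from the group means were not shared by mice of equal number (correlation across genes -0.0039 to 0.035), so numbers were not taken to pair mice. The 17 alternatives covered pseudocounts, filters, scaling, priors, voom, a replicate block and leaving out each mouse.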

Additional observations from a re-analysis of the deposited data

How the results depend on the processing

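With 2 mice per group, limits include the spread between mice and the fewer reads estimated on the listed genes in the saline libraries. The full depth of the libraries is not known. No called fold change of the 10 clock genes reversed. Of 504 fold changes over all alternatives 489 kept their sign, and the 15 that did not belong to Npas2, Nr1d1, Nr1d2, Dbp, Per2 and Per3. Many of the 504 could not change. Filters, variance priors, the replicate block, the fit on only the groups compared and the fold limit leave a fold change as it was. So does leaving out a mouse outside the comparison. Median-of-ratios scaling changed 3 of 30 signs and moved 15 of 30 values by more than the spread between mice, and voom on estimated reads changed 3 and moved 12.

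Over all genes, the number called in AP against saline mice was 3730, and 6794 with no fold limit. In polyI:C + AP against saline mice it was 3338, and 6592 with no fold limit. In polyI:C + AP against AP mice it was 142, with 90 without a filter, 28 with a prior following mean log2 TPM and 319 with voom. With each mouse left out these ranged from 2399 to 3648, from 2508 to 3336 and from 0 to 80, and the last was 0 without AP replicate 1, AP replicate 2 or polyI:C + AP replicate 2. The share of higher calls in AP against saline mice was 81.8%, or 56.2% with median-of-ratios scaling, and in polyI:C + AP against saline mice 85%, or 57.4%. Of the further clock genes, 6 and 7 were called in the comparisons with saline mice, and 14 and 12 with no fold limit, which also gave 1 against AP mice. Voom gave 4 instead of 7, and leaving out a mouse gave 4 to 7 and 5 to 7. Of the glucocorticoid-responsive genes, 4 were called in AP against saline mice, with 2 when no filter or the prior on mean log2 TPM was used and 2 to 4 with a mouse left out. Against AP mice 1 was called with no fold limit, and in polyI:C + AP against saline mice 0 to 2 with a mouse left out. Except for settings that change the number of mice, genes or the fold limit, the cause was not tested.

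With the replicate block, 3646, 124 and 3287 genes were called in the 3 comparisons. The further clock genes gave 6, 0 and 7 calls and the glucocorticoid-responsive genes 4, 0 and 1, as without the block, and it changed no call of the 10 clock genes.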

Other observations

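The genes whose profile over the 6 mice lay closest to that of Arntl were Chac2, Ntn1 and Selenbp1, among 8490 protein-coding genes whose mean reached 10 TPM. Their root mean square differences from Arntl, on centred log2 values, were 0.15, 0.17 and 0.17. Ntn1, which encodes the guidance protein netrin-1, had 188 and 186 TPM in saline, 76.2 and 71.8 TPM in AP, and 137 and 126 TPM in polyI:C + AP mice. Closest to Nr1d1 were Gatc, Klf4 and Ncapg2, with differences of 0.14, 0.19 and 0.19, and each of them was also higher in saline replicate 1 than in saline replicate 2. Gatc, a subunit of a mitochondrial enzyme for glutaminyl-tRNA, had 50.7 and 19.2 TPM in saline mice. With 6 mice in 3 groups, such closeness is a description of these profiles only.

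Thra, the gene that overlaps Nr1d1 on the opposite strand, had 34.1 and 21.5 TPM in saline, 16.4 and 12.9 TPM in AP, and 23.2 and 23.6 TPM in polyI:C + AP mice, so both AP mice were below the other 4 mice. A pair of further ratios within a mouse was formed after the values had been seen. The log2 ratio of Nr1d2 to its relative Nr1d1 was 2.78 and 4.37 in saline mice, 4.45 and 4.15 in AP mice, and 3.72 and 3.25 in polyI:C + AP mice. The log2 ratio of Arntl2 to its paralogue Arntl was -0.48 and -0.69 in saline mice, 0.43 and 0.01 in AP mice, and -0.51 and -0.69 in polyI:C + AP mice, so the AP mice stood apart and the other groups overlapped.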
